A study of Mus musculus with 43 samples.

Results

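Expression of 8 genes linked to brown and beige fat was followed across 4 tissues: Ucp1, Cidea, Dio2, Ppargc1a, Elovl3, Prdm16, Ucp2 and Ucp3. They were taken by gene symbol from a table of 42349 entries, and each of the 8 had a single entry of its own. The study sequenced polyA RNA of white adipose tissue (WAT, taken from the inguinal depot), skeletal muscle, liver and brain of female mice at 15 months of age. The mice were either wild type (WT, Irs1+/+) or carried a global knockout (KO) of insulin receptor substrate 1 (Irs1-/-), an adaptor that relays the insulin and IGF-1 signal inside the cell. WT_AL and KO_AL mice fed ad libitum (AL), whereas WT_DR and KO_DR mice had 12 months of dietary restriction (DR) at 30%. All mice shared the same standard chow, of which DR mice got less, and the Irs1 deletion is present in every cell, so its loss in fat and its loss elsewhere in the body cannot be told apart. The labels list 43 libraries in 16 groups, with 2 libraries for WT_AL in each tissue and for WT_DR in WAT and 3 for every other group. The measurement is FPKM, a read count divided by transcript length and by sequencing depth, which Cuffdiff gave as 1 pooled value per group with a 95% confidence interval. Values per mouse were not used here, so every error below is the SD or interval of the authors' estimate and the spread between mice cannot be seen.

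All 30 of 30 defining markers of the 4 tissues were higher in their own tissue than in every other tissue in all 4 groups. Irs1 itself went against the genotype labels: it was lower in the group labelled KO than in its WT counterpart in only 1 of 8 pairs of the same tissue and diet. In WAT its FPKM was 2.47 in WT_AL, 6.56 in WT_DR, 5.37 in KO_AL and 2.58 in KO_DR. Directions are therefore those of the groups labelled KO. The median log2 difference over all tested entries was not exactly 0, and in WAT it lay at -0.17 for WT_DR and at -0.06 for KO_AL, each against WT_AL. In a bulk sample, fewer cells of a type and less RNA per cell cannot be told apart.

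Brown and beige adipocytes burn fuel to make heat. Noradrenaline acts on beta-adrenergic receptors of the fat cell, cyclic AMP rises, and fatty acids released from the lipid droplet activate the uncoupling protein UCP1, which lets protons pass the inner mitochondrial membrane without making ATP. Brown adipocytes sit in dedicated depots, while beige adipocytes arise within white depots, the inguinal one in mice above all, upon cold or adrenergic stimulation.

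Positions are those of the GENCODE M21 annotation of GRCm38. Ucp1 (chromosome 8, 83290352 to 83298452, plus strand) has 6 exons, Dio2 (chromosome 12, 90724552 to 90738438, minus strand) 2, and Elovl3 (chromosome 19, 46131897 to 46135694, plus strand) 4. Ppargc1a (chromosome 5, 51454250 to 51567726, minus strand) has 13 exons and Prdm16 (chromosome 4, 154316125 to 154636873, minus strand) 17. Ucp3 (chromosome 7, 100472990 to 100486432, plus strand) and Ucp2 (chromosome 7, 100493337 to 100502020, plus strand) are neighbours in the same orientation with 6904 bases between them. FPKM covers the exons of a gene. The loci given for the Ucp3, Cidea and Dio2 entries reach further upstream than the annotated genes. That of Ucp3 reaches furthest, starting at 100372233 beside 100472990 for the gene. What these upstream stretches add to the FPKM of the 3 entries was not tested.

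Ucp1 and Dio2 carry the clearest differences among the members with an upstream sequence in the RefSeq table (build GRCm38.p6), where 6 of the 8 have one; Cidea and Elovl3 have no entry. The 250 bases before the RefSeq start are shown for these genes, 5′ to 3′ on the gene's strand. Capitals mark matches on either strand to the nuclear receptor half-site, whose letters are AGGTCA, to the cyclic AMP response half-site, whose letters are TGACG, and to the TATA box, whose letters are TATAAA.
Ucp1 (chr8:83290098-83290347, plus strand): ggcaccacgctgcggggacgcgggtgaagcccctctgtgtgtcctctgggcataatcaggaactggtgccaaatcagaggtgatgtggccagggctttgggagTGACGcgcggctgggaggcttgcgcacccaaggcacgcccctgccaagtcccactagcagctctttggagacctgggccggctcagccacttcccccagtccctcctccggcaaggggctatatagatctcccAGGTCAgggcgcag
Dio2 (chr12:90739039-90739288, minus strand): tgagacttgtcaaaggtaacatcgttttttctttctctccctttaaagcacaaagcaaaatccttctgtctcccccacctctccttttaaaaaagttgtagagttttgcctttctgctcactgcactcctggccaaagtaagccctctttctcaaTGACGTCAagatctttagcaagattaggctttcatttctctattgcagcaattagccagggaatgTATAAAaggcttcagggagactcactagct
The Ucp1 window holds 1 AGGTCA and 1 TGACG. In the Dio2 window TGACG matches on both strands of a single palindromic run, which counts as 2 overlapping matches, and TATAAA matches once. Over all 32851 windows of this length, 14.0% hold AGGTCA, 17.8% TGACG and 12.4% TATAAA, so each match alone is common. Of the other windows, that of Ucp3 has 2 AGGTCA, those of Ppargc1a and Ucp2 have 1 TGACG each, and that of Prdm16 has none of the motifs. A match describes the letters only.

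The members were low to moderate in WAT except for Ucp2. Their FPKM across the 4 WAT groups ran from 0.283 to 0.669 for Ppargc1a and from 1.00 to 2.28 for Prdm16, from 3.13 to 11.8 for Ucp1 and from 11.5 to 62.5 for Cidea. Ucp2 reached 381. Of 160 combinations of gene, tissue and comparison, 102 could be tested, 30 had a group listed at 0 and 28 were under an FPKM of 1 in both groups. Each difference is a log2 ratio of FPKM without a pseudocount, given with its standard error (SE) and an adjusted p from a Wald test (two-sided, Benjamini-Hochberg adjustment over every entry tested in that tissue and comparison). At an FDR of 10%, 10 combinations passed: 4 in WAT, 6 in skeletal muscle, 0 in liver and 0 in brain.

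**Figure D1:**
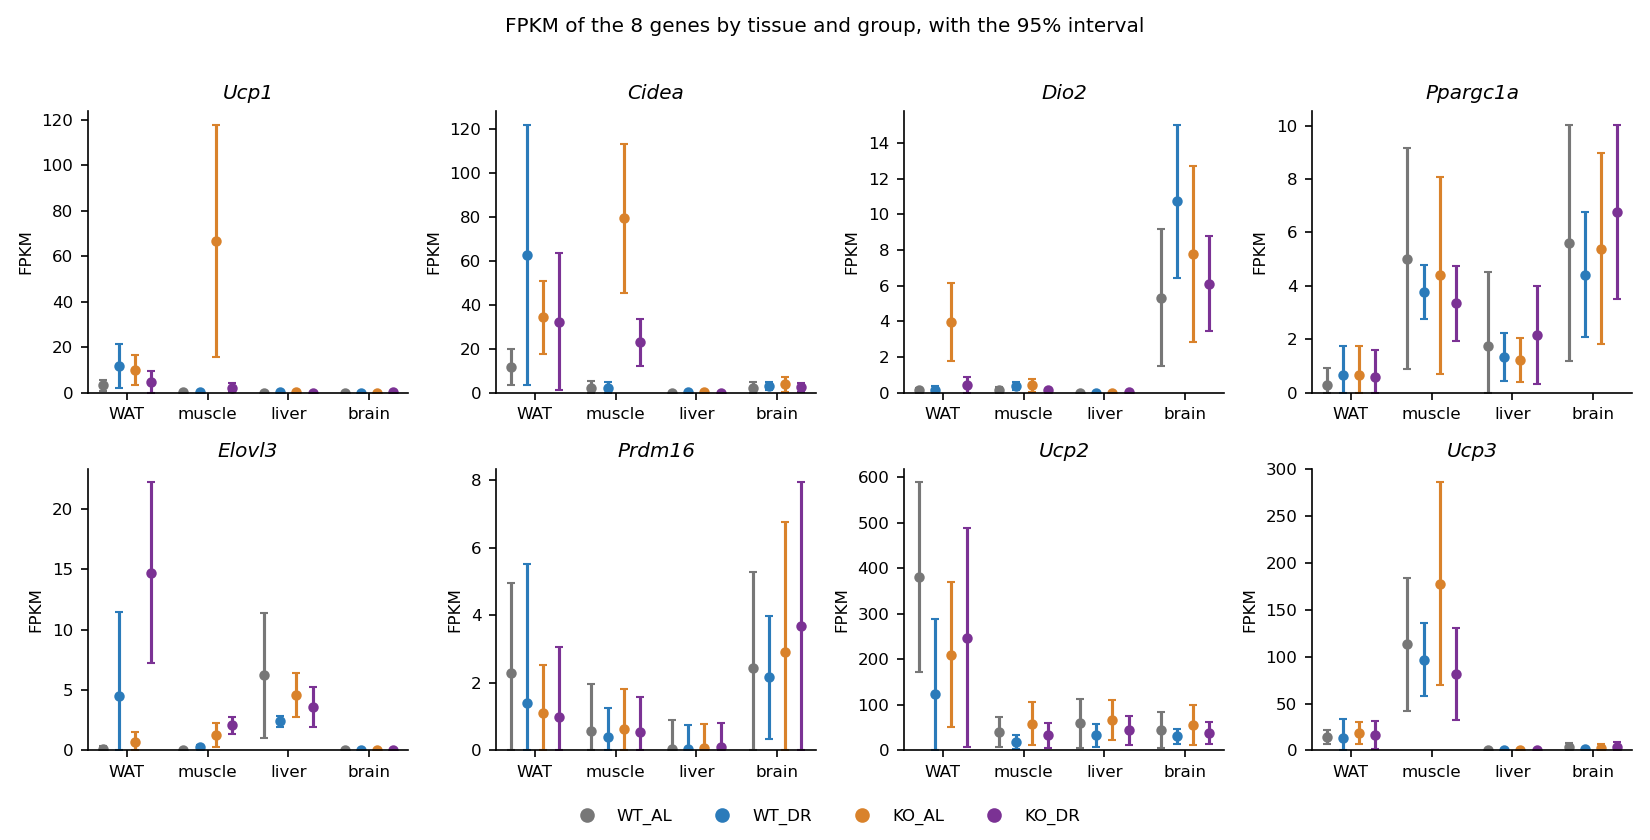
FPKM (y axis, linear, its own range for each gene) of the 8 genes in WAT, skeletal muscle, liver and brain, with the 4 groups in colour. Points are the authors' pooled group values and bars their 95% intervals. Ucp1 stands highest in skeletal muscle of the group labelled KO_AL at 66.9, Elovl3 in WAT of KO_DR at 14.7, and Dio2 in WAT reaches 3.94 in KO_AL alone.

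In WAT, KO_AL differed from WT_AL in 1 of 6 tested members, beside 1.29% of all 15481 tested entries, and 3 of 6 were under an unadjusted p of 0.05, beside 4.48%. WT_DR differed from WT_AL in 0 of 6 (0.57% of all entries), and by the same Wald test 3 of 6, Ucp1, Cidea and Elovl3, were under an unadjusted p of 0.05, beside 3.56% of all entries. KO_DR differed from WT_DR in 0 of 6 (0.283%), and 0 of 6 were under an unadjusted p of 0.05 in the Wald test (1.5% of all entries). KO_DR differed from KO_AL in 2 of 7 (0.707%, and 4.03% at the unadjusted p) and from WT_AL in 1 of 6 (1.26%, and 5.85%), with no further members at the unadjusted p. These comparisons share groups, so they are not independent of each other. Within all 8 members, FPKM was higher than in WT_AL for 6 in KO_AL, for 5 in WT_DR and for 6 in KO_DR.

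Ucp1, the uncoupling protein that defines thermogenic fat, had an FPKM in WAT of 3.13 in WT_AL, with a 95% interval of 0.649 to 5.61. It was 11.8 in WT_DR (2.12 to 21.5), 9.87 in KO_AL (3.32 to 16.4) and 4.48 in KO_DR (0 to 9.68). The 4 intervals overlapped, although WT_DR and KO_AL stood above the others. The log2 difference from WT_AL was 1.92 in WT_DR (SE 0.82, adjusted p 1.00) and 1.66 in KO_AL (SE 0.75, adjusted p 0.779), so neither passed. Their 95% intervals, 0.30 to 3.53 and 0.19 to 3.12, do not reach 0 before adjustment.

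Skeletal muscle gave the highest Ucp1 value of the 16 groups. There Ucp1 was 0.0897 in WT_AL (0 to 0.309), 0.230 in WT_DR (0 to 0.686), 66.9 in KO_AL (15.8 to 118) and 2.05 in KO_DR (0.111 to 3.98). The KO_AL interval lay apart from those of the other 3 muscle groups, and KO_DR was between. Ucp1 rose in the group labelled KO_AL by 9.54 on the log2 scale against WT_AL (SE 1.85, adjusted p 0.000148). It was lower in KO_DR than in KO_AL by a log2 difference of -5.03 (SE 0.88, adjusted p 4.91e-06). The WT_AL value has an SD of 122% of its FPKM, so the size of the first difference is poorly set, and with a pseudocount of 1 it was 5.96. KO_DR against WT_DR gave 3.15 (SE 1.58, adjusted p 0.819).

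Cidea, a lipid droplet protein used as a brown fat marker (chromosome 18, 67343604 to 67367785, plus strand, 5 exons), also rose in muscle. Its FPKM was 2.16 in WT_AL (0 to 5.37), 2.07 in WT_DR (0 to 4.88), 79.1 in KO_AL (45.3 to 113) and 22.8 in KO_DR (12.2 to 33.4). Both groups labelled KO stood above both WT groups with no overlap of intervals, and KO_AL stood above KO_DR. The log2 difference was 5.20 for KO_AL against WT_AL (SE 1.11, adjusted p 0.00119), 3.46 for KO_DR against WT_DR (SE 1.04, adjusted p 0.047) and -1.79 for KO_DR against KO_AL (SE 0.45, adjusted p 0.0203). KO_DR against WT_AL missed the FDR at 3.40 (SE 1.12, adjusted p 0.196), while the intervals of these groups did not overlap.

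In WAT, Cidea was 11.5 in WT_AL (3.40 to 19.7), 62.5 in WT_DR (3.19 to 122), 34.1 in KO_AL (17.6 to 50.7) and 32.1 in KO_DR (0.984 to 63.2). WT_AL was lowest, yet its interval overlapped every other. Against WT_AL the log2 difference was 2.44 in WT_DR (SE 0.85, adjusted p 0.42), 1.57 in KO_AL (SE 0.62, adjusted p 0.449) and 1.48 in KO_DR (SE 0.86, adjusted p 1.00). Ucp1 and Cidea thus had the same order of groups in WAT, with WT_AL lowest, then KO_DR and KO_AL, and WT_DR highest, although neighbouring groups did not differ beyond their intervals. The 8 white adipocyte markers had a summed FPKM in WAT of 23934 in WT_AL, 29730 in WT_DR, 15735 in KO_AL and 20816 in KO_DR, none was at 0, and 0 of 8 passed in each comparison. At an unadjusted p of 0.05 in the Wald test 1 of the 8 was below it for WT_DR against WT_AL and 0 in the others. None of the tested lymphocyte, astrocyte or neuron markers passed in WAT, and in each of the 5 comparisons 0 or 1 of a list was under an unadjusted p of 0.05.

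In skeletal muscle of KO_AL, 2 of 5 tested members were called against WT_AL, beside 0.681% of 14102 entries. The counts were 2 of 6 for KO_DR against WT_DR (2.23%), 2 of 6 for KO_DR against KO_AL (0.5%), 0 of 5 for KO_DR against WT_AL (0.875%) and 0 of 4 for WT_DR against WT_AL (1.4%). At an unadjusted p of 0.05 in the same Wald test the counts were 2 of 5 (3.18% of all entries), 3 of 6 (5.81%), 2 of 6 (2.01%), 2 of 5 (6.24%) and 0 of 4 (5.05%) in the same order.

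**Figure D2:**
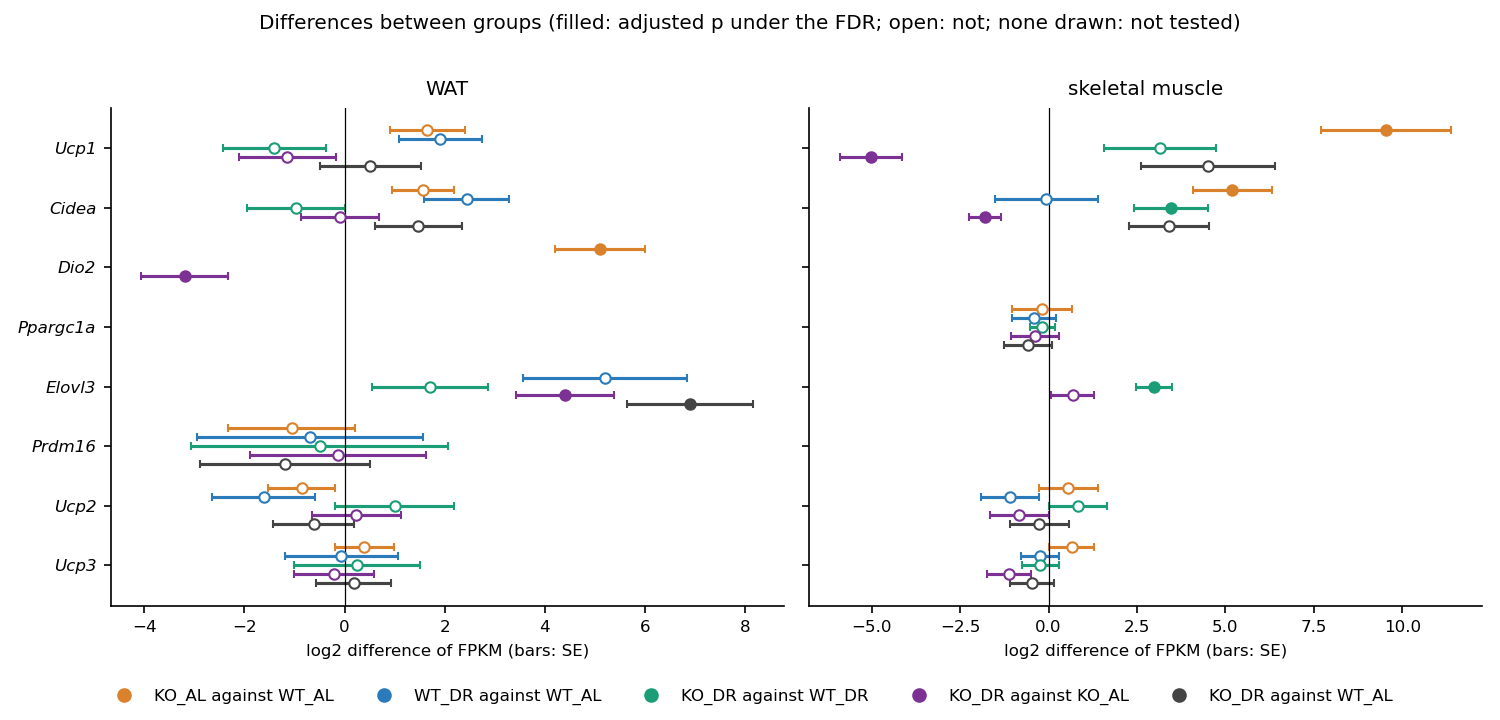
Log2 difference of FPKM between groups (x axis, bars are 1 SE) for each of the 8 genes (y axis) in WAT on the left and skeletal muscle on the right, coloured by comparison. Filled points passed the FDR of 10%: Dio2 (5.10 and -3.19) and Elovl3 (4.41 and 6.91) in WAT, and Ucp1, Cidea and Elovl3 in skeletal muscle.

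Markers of other cells were set beside the rise of Ucp1 and Cidea in muscle. The summed FPKM of 8 white adipocyte markers in muscle was 2034 in WT_AL, 779 in WT_DR, 2483 in KO_AL and 3194 in KO_DR, and none of the 8 was listed at 0. Adipoq, which encodes the fat hormone adiponectin, was 321, 62.9, 198 and 326 in the same order, and the lipid droplet coat gene Plin1 was 57.7, 17.0, 91.0 and 134. Fat markers were thus present in every muscle group, and their sum was lowest in WT_DR and highest in KO_DR. Lep, which encodes leptin, and the fatty acid carrier gene Fabp4 were instead highest in WT_AL, at 78.7 and 654. For KO_AL against WT_AL, in which both Ucp1 and Cidea rose, 5 of the 8 markers were higher and 3 lower. Their median log2 difference was 0.48 beside -0.05 over all entries, and past the FDR 0 rose and 1 fell (Lep). For KO_DR against WT_DR, in which Cidea rose, all 8 were higher and 6 of them rose past the FDR. In KO_AL the 8 markers in muscle stood at 4.16% to 40.4% of their level in WAT of the same group, with a median of 14.2%. A share of 40.4% of the WAT level would be 3.99 for Ucp1 and 13.8 for Cidea, and the measured values were 66.9 and 79.1. In KO_DR the median share was 11.1% and the highest 35.3%, which would be 1.58 for Ucp1 and 11.3 for Cidea beside the measured 2.05 and 22.8. These shares use the WAT profile of the same group and do not address brown fat, and the part of fat cells in the Ucp1 and Cidea results was not tested.

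Genes of developing granulocytes in bone marrow moved with Ucp1 in the muscle groups. Prg2 was taken because it was the entry most like Ucp1 over the 16 groups, so its match with Ucp1 follows from that choice. The others were chosen after their values were seen. Camp, which encodes a neutrophil granule peptide, had an FPKM of 0 in WT_AL, 1.00 in WT_DR, 57.8 in KO_AL and 0.521 in KO_DR. Ngp, another neutrophil granule gene, was 0.129, 1.15, 42.1 and 1.53, and Mpo, which encodes myeloperoxidase, was 0.129, 0, 17.5 and 0.117. Prg2, an eosinophil granule gene, was 0, 0.0473, 8.70 and 0. The KO_AL muscle group therefore stood apart for these genes as well as for Ucp1, and their part in the Ucp1 and Cidea result was not tested. The general macrophage and myeloid markers had a summed FPKM of 166, 126, 199 and 92.4 in the same order, with KO_AL highest. For KO_AL against WT_AL 8 of 10 tested were higher, with a median log2 difference of 0.24 beside -0.05 over all entries. Of the 10 tested 0 passed, and 0 were under an unadjusted p of 0.05 in the Wald test. Hepatocyte markers were highest in another group, WT_DR, where Alb, encoding albumin, reached 987 in muscle beside 13.6 in KO_AL.

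**Figure D3:**
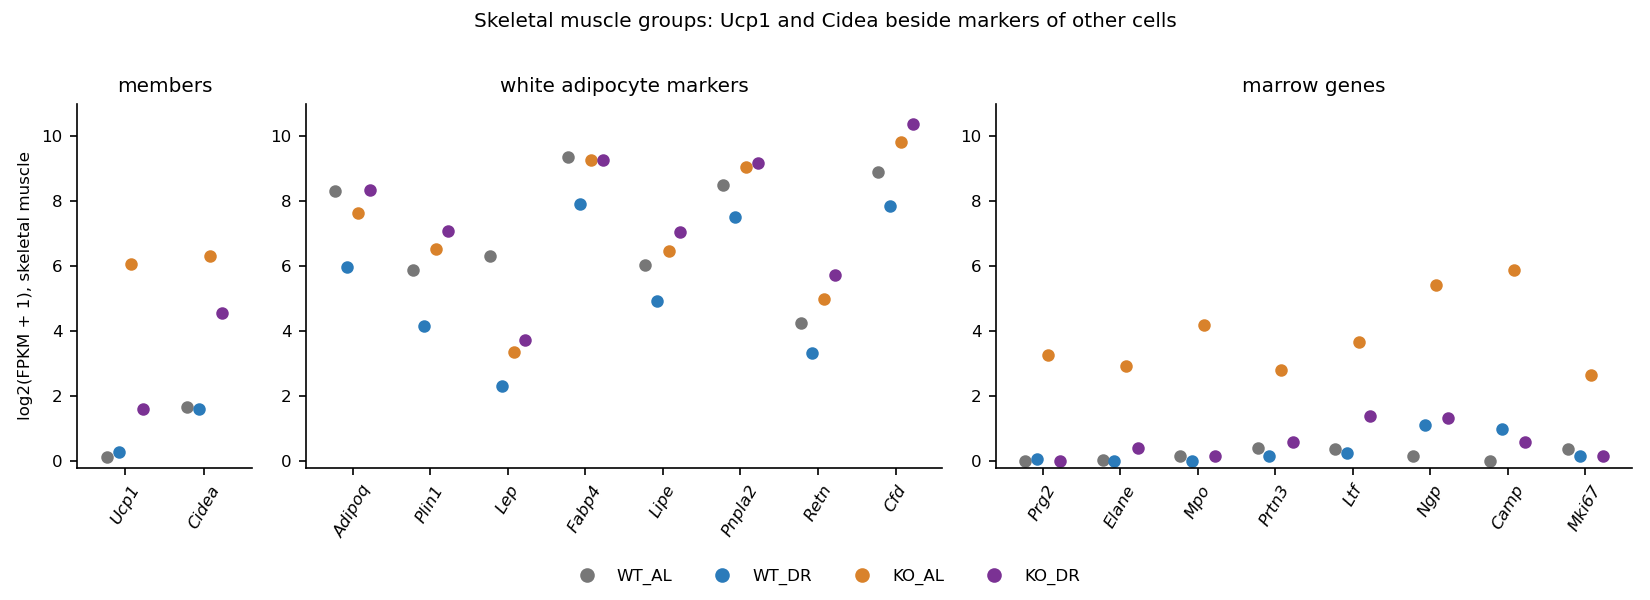
Expression in skeletal muscle as log2(FPKM + 1) (y axis) of Ucp1 and Cidea (left), 8 white adipocyte markers (middle) and 8 genes titled marrow genes (right) in the 4 groups. Points are pooled group values. The genes on the right include the general proliferation gene Mki67. Prg2 was taken for its likeness to Ucp1 over the 16 groups, and the others were chosen after their values were seen. KO_AL is highest for Ucp1, Cidea and all 8 genes on the right, and KO_DR or WT_AL is highest for the adipocyte markers.

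Elovl3, an enzyme of very long chain fatty acid synthesis that is strongly expressed in brown fat, rose in WAT of KO_DR against both AL groups. In WAT its FPKM was 0.123 in WT_AL (0 to 0.328), 4.52 in WT_DR (0 to 11.4), 0.692 in KO_AL (0 to 1.56) and 14.7 in KO_DR (7.26 to 22.2). The KO_DR interval lay above those of both AL groups and overlapped that of WT_DR, and both DR values were above both AL values. Elovl3 rose in KO_DR by 4.41 on the log2 scale against KO_AL (SE 0.97, adjusted p 0.00253) and by 6.91 against WT_AL (SE 1.26, adjusted p 2.37e-05). WT_DR against WT_AL gave 5.20 (SE 1.64, adjusted p 0.198), and KO_DR against WT_DR gave 1.70 (SE 1.16, adjusted p 1.00). Hepatocyte markers fell in WAT in the same comparisons: 2 of 6 for KO_DR against KO_AL, and 3 of 6 against WT_AL, with 5 of the 6 under an unadjusted p of 0.05 each time. Alb was 204 in WT_AL, 192 in WT_DR, 203 in KO_AL and 28.5 in KO_DR, and Apoa2, an apolipoprotein gene, was 213, 61.2, 204 and 20.8. Their part in the Elovl3 result was not tested.

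In skeletal muscle Elovl3 was listed at 0 in WT_AL, and it was 0.266 in WT_DR (0.0991 to 0.433), 1.30 in KO_AL (0.301 to 2.30) and 2.09 in KO_DR (1.38 to 2.80). These are low levels, with KO_DR highest. The difference between KO_DR and WT_DR was 2.97 (SE 0.51, adjusted p 1.80e-06), and comparisons with WT_AL were not tested because of the 0. The 6 of 8 white adipocyte markers that rose did so in this same comparison. At the median and the highest share of the WAT level that these markers reached in muscle of the same group, Elovl3 would be 1.63 and 5.19 in KO_DR, 0.113 and 0.316 in WT_DR, and 0.0979 and 0.280 in KO_AL. The measured values lay between both in KO_DR and WT_DR and above both in KO_AL, and the part of fat cells in the Elovl3 difference was not tested. In liver the order was another: Elovl3 was 6.21 in WT_AL, 2.43 in WT_DR, 4.56 in KO_AL and 3.60 in KO_DR, with both AL groups above both DR groups. The liver difference of WT_DR from WT_AL missed the FDR. Elovl3 was listed at 0 in all 4 brain groups.

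The change of Elovl3 in WAT differed from that in liver in the test of the difference itself, which was added after the values were seen. KO_DR against KO_AL differed by 4.75 between WAT and liver (SE 1.07, adjusted p 0.00911), and KO_DR against WT_AL by 7.69 (SE 1.43, adjusted p 0.000246). In the same kind of test Ucp1 in KO_AL against WT_AL differed between WAT and skeletal muscle by -7.89 (SE 1.99, adjusted p 0.0414), since the muscle difference was the larger. In these comparisons 1 of 5, 1 of 5 and 1 of 7 tested members passed, beside 0.173%, 0.079% and 0.29% of all entries. Over the 15 such comparisons of WAT with another tissue, with 4 to 8 members tested in each, 4 member results passed in all. The other one was that of Dio2 in brain, and between 0.0393% and 0.324% of all entries passed.

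Dio2 encodes the deiodinase that converts thyroxine to the active hormone T3 inside brown adipocytes and astrocytes. In WAT its FPKM was 0.115 in WT_AL (0 to 0.243), 0.136 in WT_DR (0 to 0.338), 3.94 in KO_AL (1.74 to 6.15) and 0.432 in KO_DR (0 to 0.895). Only the KO_AL interval lay apart from the others, and the other 3 groups overlapped below an FPKM of 1. Dio2 rose in KO_AL by 5.10 on the log2 scale against WT_AL (SE 0.90, adjusted p 8.27e-06), and it was lower in KO_DR than in KO_AL by a log2 difference of -3.19 (SE 0.87, adjusted p 0.0446). With a pseudocount of 1 these differences were 2.15 and -1.79. Brain, where astrocytes carry Dio2, had the highest levels, at 5.32 in WT_AL, 10.7 in WT_DR, 7.78 in KO_AL and 6.12 in KO_DR. None of the brain differences passed, and the difference of KO_AL from WT_AL in WAT exceeded that in brain by 4.56 (SE 1.14, adjusted p 0.0616, beside 0.11% of all entries). Muscle stayed between 0.135 and 0.397, and liver was at or near 0.

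Epithelial markers moved in WAT with the groups in which Dio2 was read. The summed FPKM of 8 mammary and skin epithelium markers was 17.0 in WT_AL, 25.9 in WT_DR, 144 in KO_AL and 106 in KO_DR, and 2, 3, 0 and 0 of the 8 were listed at 0. For KO_AL against WT_AL all 4 that were tested rose (Krt8, Krt18, Krt19 and Epcam), with Epcam at 0.255 and 10.8. For KO_DR, in which Dio2 was 0.432, Epcam was 5.31 and Krt18 34.2, beside 35.3 for Krt18 in KO_AL. For KO_DR against KO_AL, 5 of the 7 tested epithelial markers were lower and 2 higher. Of these 0 passed, and 2 were under an unadjusted p of 0.05 in the Wald test. Their part in the Dio2 result was not tested. The skeletal muscle markers in WAT also moved: against WT_AL 8 of 11 rose in KO_AL, 4 in WT_DR and 7 in KO_DR, with median log2 differences of 4.93, 3.04 and 4.00. The median FPKM of the 11 was 1.59 in WT_AL, 29.6 in WT_DR, 55.0 in KO_AL and 45.2 in KO_DR. Acta1, the skeletal muscle actin gene, had its highest value in WT_AL, 507 beside 112, 337 and 327 in the others, and the summed FPKM was 532, 419, 1193 and 751. The part of muscle cells in the WAT results was not tested. In muscle itself Dio2 did not exceed 0.397.

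**Figure D4:**
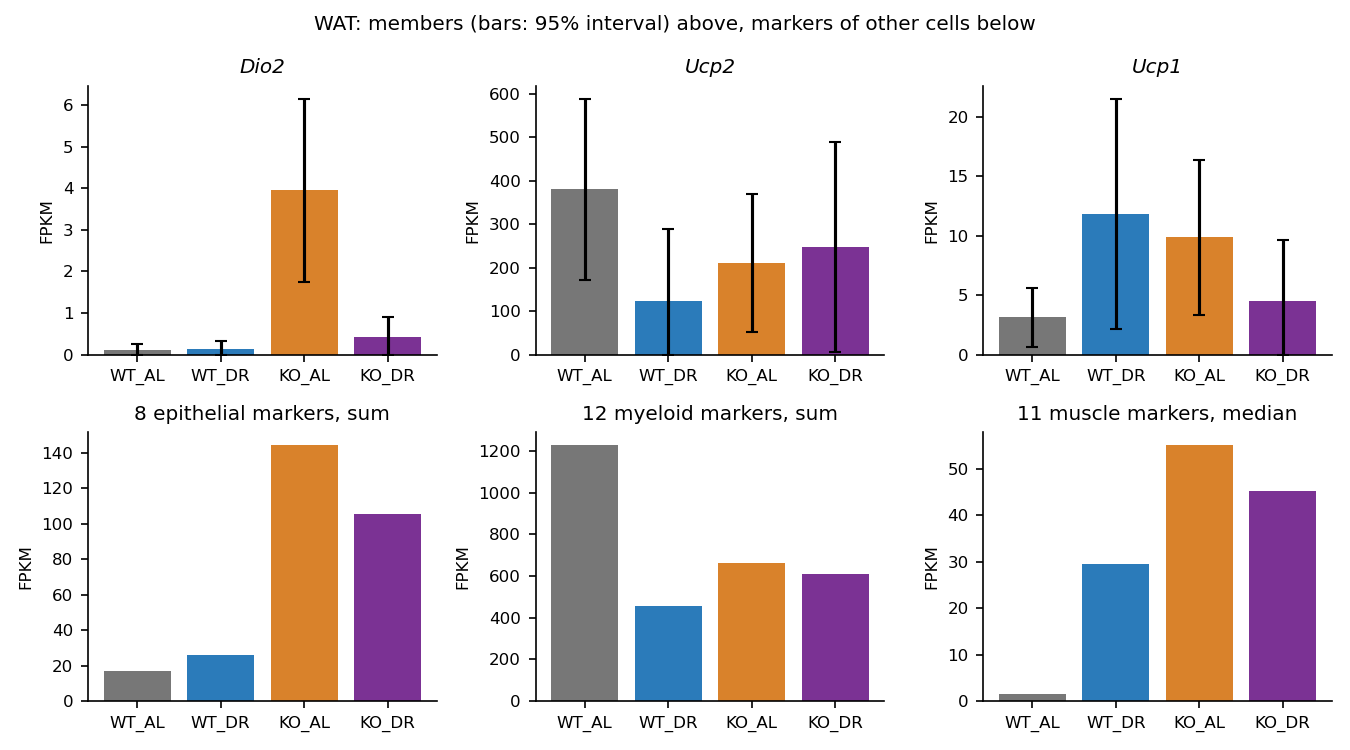
FPKM in WAT (y axes from 0) by group. The upper row gives Dio2, Ucp2 and Ucp1 with 95% intervals and the lower row the summed FPKM of 8 epithelial and 12 myeloid markers and the median FPKM of 11 skeletal muscle markers. The epithelial sum is 144 in KO_AL and 106 in KO_DR, and Dio2 is 3.94 and 0.432. WT_AL is highest for both Ucp2 and the myeloid sum, and the muscle marker median is 1.59 in WT_AL and at least 29.6 in the other groups.

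Ppargc1a and Prdm16 are the transcriptional regulators among the members. Ppargc1a encodes the coactivator PGC-1alpha, which drives mitochondrial biogenesis, and Prdm16 encodes a factor that commits cells to the brown fate. Ppargc1a in WAT was 0.283 in WT_AL, 0.669 in WT_DR, 0.645 in KO_AL and 0.565 in KO_DR, all under the minimum for a test and all with intervals that reach 0. Skeletal muscle and brain had more, between 3.34 and 5.01 and between 4.41 and 6.77. The muscle values were 5.01 in WT_AL, 3.77 in WT_DR, 4.39 in KO_AL and 3.34 in KO_DR, with overlapping intervals. None of 15 tests of Ppargc1a over the tissues passed, and the lowest adjusted p was 0.99.

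Prdm16 in WAT was 2.28 in WT_AL, 1.41 in WT_DR, 1.10 in KO_AL and 1.00 in KO_DR. WT_AL was highest here, the opposite end from Ucp1 and Cidea, but every interval reached 0 and the SD was 58.6% to 146% of the FPKM. The log2 difference from WT_AL was -0.69 in WT_DR (SE 2.26), -1.06 in KO_AL (SE 1.27) and -1.19 in KO_DR (SE 1.70), each with an adjusted p of 1.00. A 2-fold change in either direction lies within the 95% interval of each of them. None of 10 tests over the tissues passed.

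Ucp2 and Ucp3 encode relatives of UCP1 that are not used as marks of thermogenic fat: Ucp2 is widespread and high in immune cells, and Ucp3 is foremost a muscle gene. Ucp2 was by far the highest member in WAT, at 381 in WT_AL (173 to 589), 124 in WT_DR (0 to 288), 211 in KO_AL (51.4 to 370) and 248 in KO_DR (6.75 to 489). WT_AL was highest and WT_DR lowest, with overlapping intervals throughout, and the difference between them was -1.62 (SE 1.03, adjusted p 1.00). The 12 macrophage and myeloid markers had a summed FPKM of 1227, 458, 661 and 608 in the same order of groups. All 12 were lower in WT_DR than in WT_AL, though 0 passed the FDR and 4 were under an unadjusted p of 0.05 in the Wald test. Lyz2, a lysozyme of macrophages, was 474 in WT_AL and 175 in WT_DR. The part of these cells in the Ucp2 levels was not tested.

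Ucp3 in skeletal muscle was 113 in WT_AL, 96.6 in WT_DR, 178 in KO_AL and 81.8 in KO_DR. KO_AL was highest, as for Ucp1 and Cidea, but its interval of 69.6 to 286 overlapped the others, and the difference from WT_AL was 0.65 (SE 0.63, adjusted p 1.00). In WAT Ucp3 was 14.3, 13.7, 18.9 and 16.3 in WT_AL, WT_DR, KO_AL and KO_DR, the flattest of the members. The part of muscle cells in these WAT levels was not tested. None of 20 tests of Ucp2 and none of 15 tests of Ucp3 passed over the tissues.

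Liver and brain held no member difference that passed. In liver 3 members could be tested in each comparison (Elovl3, Ppargc1a and Ucp2), and 0 of 3 were called in each, beside 0.316% of all entries for KO_AL against WT_AL, 0.236% for WT_DR against WT_AL, 0.288% for KO_DR against WT_DR, 0.611% for KO_DR against KO_AL and 0.272% for KO_DR against WT_AL. At an unadjusted p of 0.05 in the Wald test the count was 1 of 3 for WT_DR against WT_AL (Elovl3, beside 2.91% of all entries) and 0 of 3 in the others (2.03%, 1.78%, 2.87% and 3.08%). In brain 0 of 6 were called in each comparison, beside 0.203%, 0.224%, 1.16%, 0.365% and 0.105% in the same order, and 0 of 6 were under an unadjusted p of 0.05 in each (1.81%, 2.22%, 7.5%, 2.51% and 0.646%). Ucp1 in liver and brain did not exceed 0.0532, and Cidea in liver did not exceed 0.18. Ucp2 in liver was 59.4 in WT_AL, 32.9 in WT_DR, 67.0 in KO_AL and 43.8 in KO_DR.

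Whether the genotype difference depended on diet was tested as an interaction, the log2 difference of KO_DR from WT_DR less that of KO_AL from WT_AL. No member passed in WAT (0 of 7, beside 0.121% of all entries), skeletal muscle (0 of 5, 0.371%), liver (0 of 3, 0.086%) or brain (0 of 6, 0.396%). By the unadjusted Wald test 3 of 7 in WAT were under 0.05, beside 1.56% of all entries. They were Ucp1 at -3.06 (SE 1.27, adjusted p 1.00), Cidea at -2.53 (SE 1.16, adjusted p 1.00) and Dio2 at -3.43 (SE 1.60, adjusted p 1.00). In skeletal muscle it was 1 of 5 (2.3%), Ucp1 at -6.39 (SE 2.43, adjusted p 0.779), and in liver and brain it was 0 of 3 (1.05%) and 0 of 6 (3.53%). In WAT the DR value of Ucp1 was above the AL value in WT mice (11.8 and 3.13) and below it in KO mice (4.48 and 9.87).

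Set against the other tissues of the same group, WAT was the higher one in 11 of 12 pairs for Ucp1 and for Cidea, with KO_AL muscle as the exception for both. In that pair Ucp1 was lower in WAT by a log2 difference of -2.76 (SE 0.73, adjusted p 0.00176) and Cidea by -1.21 (SE 0.47, adjusted p 0.0488). Ucp2 was higher in WAT in 12 of 12 pairs, 9 of them past the FDR. Ppargc1a was higher in WAT in 0 of 12 pairs, and 4 of the 12 passed. In all, 41 member differences passed over these 12 comparisons between tissues. Against skeletal muscle 4 of 6 tested members passed in WT_AL (24.1% of all entries) and 4 of 7 in WT_DR (13.2%). In KO_AL it was 5 of 8 (23.7%) and in KO_DR 3 of 7 (17.8%). Against liver it was 2 of 5 (20.6%), 1 of 6 (14.4%), 4 of 7 (27.6%) and 2 of 5 (18.6%) in the same order. Against brain it was 4 of 6 (26.9%), 3 of 6 (21.3%), 4 of 6 (27.1%) and 5 of 7 (30.7%). Ranked over the 16 groups, neighbours had overlapping intervals almost throughout. The exceptions were a step between Dio2 in WAT of KO_AL and WAT of KO_DR, 3.94 and 0.432, and a step between Ucp3 in muscle of KO_DR and WAT of KO_AL, 81.8 and 18.9.

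Few genes of the same programme beyond the members passed the FDR. Of 27 further brown and beige adipocyte genes, 19 were tested in WAT in each comparison. In KO_AL against WT_AL 1 rose past the FDR and 0 fell (Mpzl2, 0.354 and 4.47), beside 1.29% of all entries. The median log2 difference was 0.10 beside -0.06 over all entries. By the unadjusted Wald test 2 of 19 were under 0.05, beside 4.48% of all entries. The 4 epithelial markers tested rose in that comparison too, with a median of 3.54, and their part in the Mpzl2 result was not tested. In WT_DR against WT_AL 0 passed, and 2 of 19 were under an unadjusted p of 0.05, with a median of 0.46 beside -0.17. In KO_DR against WT_DR 0 passed as well, with 1 under an unadjusted p of 0.05. In KO_DR against WT_AL 1 of 19 passed (1.26% of all entries) and 15 of 19 were higher, with a median of 0.38 beside -0.04. There 4 of 19 were under an unadjusted Wald p of 0.05 (5.85%). In KO_DR against KO_AL 1 of 19 passed (0.707%) and 12 of 19 were higher, with a median of 0.28 beside 0.01. There 2 of 19 were under an unadjusted Wald p of 0.05 (4.03%). Kcnk3, a potassium channel of brown adipocytes, rose in KO_DR against KO_AL by 0.85 (SE 0.18, adjusted p 0.000756). In that comparison all 8 white adipocyte markers were higher in WAT, with a median of 0.58 beside 0.01, and 0 passed. The part of fat cells in the Kcnk3 result was not tested. Pank1, which makes the coenzyme A precursor, rose in KO_DR against WT_AL by 2.26 (SE 0.63, adjusted p 0.0356). Adrb3, the beta-3 adrenergic receptor of adipocytes, is named here after its values were seen: it was 70.5 in WT_AL, 407 in WT_DR, 106 in KO_AL and 184 in KO_DR, and it did not pass in WAT.

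In skeletal muscle of KO_AL 17 of 20 tested genes of this list were higher than in WT_AL, with a median of 0.59 beside -0.05 over all entries. Of the 20, 0 passed and 2 were under an unadjusted p of 0.05 in the Wald test (3.18% of all entries). For KO_DR against WT_DR 2 of 21 rose past the FDR, beside 2.23% of all entries, and 6 of 21 were under an unadjusted Wald p of 0.05 (5.81%). Kcnk3 rose by 1.52 (SE 0.14, adjusted p 9.50e-24) and Slc36a2, an amino acid transporter of brown fat, by 1.83 (SE 0.51, adjusted p 0.0225). In the same comparison 6 of 8 white adipocyte markers rose, with Plin1 at 17.0 and 134. Kcnk3 fell in WT_DR against WT_AL by 1.06 on the log2 scale (SE 0.21, adjusted p 0.000125), and Pank1 fell in KO_DR against KO_AL by 1.78 (SE 0.40, adjusted p 0.00245). For WT_DR against WT_AL the 8 white adipocyte markers were all lower, and 1, Lep, passed.

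Of 24 listed transcriptional regulators of the programme, 21 or 22 were tested in WAT and 0 passed the Wald test in each of the 5 comparisons, with 1 under an unadjusted p of 0.05 for KO_AL against WT_AL and 0 for the others. In skeletal muscle 3 of 22 tested rose in KO_DR against WT_DR, beside 2.23% of all entries. Among them were Pparg, the master regulator of adipocytes, by 2.34 (SE 0.65, adjusted p 0.0198), and Cebpa by 1.50 (SE 0.24, adjusted p 1.38e-07). In muscle 6 of 8 white adipocyte markers rose in this comparison too. Lpin1, a coactivator and enzyme of fat synthesis, rose in liver in the same comparison by 2.45 (SE 0.48, adjusted p 0.000175). Cebpa fell in muscle of WT_DR against WT_AL by 1.16 (SE 0.27, adjusted p 0.00237), where all 8 white adipocyte markers were lower. The part of fat cells in the Pparg and Cebpa results was not tested.

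Among 21 genes of adrenergic and thyroid hormone signalling, 1 passed in WAT in KO_AL and in KO_DR, each against WT_AL, and 0 in the other comparisons. There 2 were under an unadjusted p of 0.05 in the Wald test for WT_DR against WT_AL, 0 for KO_DR against WT_DR and 1 for KO_DR against KO_AL. For KO_AL against WT_AL it was 3 of 19 (4.48% of all entries), with 11 lower and a median log2 difference of -0.32 beside -0.06. For KO_DR against WT_AL it was 5 of 17 (5.85%), with 12 lower and a median of -0.34 beside -0.04. The gene that passed was Thrsp, a thyroid hormone responsive gene of fat synthesis. Its FPKM was 152 in WT_AL, 858 in WT_DR, 523 in KO_AL and 1276 in KO_DR. None of the adrenergic receptors or cyclic AMP genes passed in WAT. In liver of KO_DR against KO_AL Thrsp rose by 4.15 (SE 0.68, adjusted p 4.76e-07) and Fgf21, a hormone that acts on fat, fell by 2.37 (SE 0.52, adjusted p 0.00112).

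The families of single members were also followed. Of the 8 other elongase and CIDE genes, Elovl6 alone passed in WAT, in KO_AL, WT_DR and KO_DR against WT_AL, with an FPKM of 3.44 in WT_AL, 126 in WT_DR, 58.9 in KO_AL and 160 in KO_DR. Elovl3 and Elovl6 were both lowest in WT_AL and highest in KO_DR. Cidec, the white fat relative of Cidea, was 3106 in WT_AL, 1529 in WT_DR, 2033 in KO_AL and 2382 in KO_DR in WAT, so WT_AL was lowest for Cidea and highest for Cidec. Of 9 other mitochondrial carriers 0 passed in WAT and 0 were under an unadjusted p of 0.05 in the Wald test, and Slc25a4, the ADP/ATP carrier of muscle and heart, rose in brain of KO_DR against WT_DR by 1.56 (SE 0.41, adjusted p 0.0286). Of 13 genes of heat production without Ucp1, Ckmt2 (6.53, SE 1.72, adjusted p 0.0171) and Ryr1 (3.36, SE 0.87, adjusted p 0.0145) rose in WAT of KO_AL. Ryr1 also rose in WAT of KO_DR against WT_AL, by 2.36 (SE 0.71, adjusted p 0.073). In muscle of KO_AL Ckmt2 and Ryr1 were at 677 and 208, beside 7.06 and 2.18 in WAT. Of the 11 muscle markers 8 rose in WAT of KO_AL too. The part of muscle cells in the Ckmt2 and Ryr1 results was not tested.

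The genes most like each member were those with the highest Pearson correlation of log2(FPKM + 1) over the 16 groups, among 15404 entries that reached an FPKM of 5. These values are a description over groups that share tissues. For Ucp1 they were Prg2 (0.93), Cidea (0.89) and the immunoglobulin kappa segment Igkv2-109 (0.89), and for Cidea they were Gpx8 (0.90), Slc27a1 (0.90) and Ucp1 (0.89). Dio2 was followed by Tox3, Calb1 and Coch (0.99, 0.98 and 0.98), which in WAT were also highest in KO_AL, at 2.11, 9.92 and 2.87, with no value above 0.509 in the other WAT groups. Elovl3 was followed by Lsm10 (0.91), Usp50 (0.90) and Pomt1 (0.89), and in WAT Usp50 was 141 in WT_AL, 461 in WT_DR, 159 in KO_AL and 380 in KO_DR. Ucp2 was most like Efnb1 (0.98), Dok1 (0.97) and the leukocyte integrin Itgb2 (0.95). Ucp3 was most like Tbc1d4, Amotl1 and Gyg (0.99 each), Ppargc1a most like Extl1 (0.98), Ank3 and Tsc1 (0.97 each), and Prdm16 most like Hspa12a (0.99), Ubqln2 (0.98) and 9430020K01Rik (0.98).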

How the data were processed

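The authors trimmed the reads with cutadapt 1.5, aligned them to GRCm38 and ran Cuffdiff 2.2.1, per the labels and the study's methods. They deposited 1 FPKM value per entry and group with a 95% interval and a status, normalized between libraries by Cuffdiff. Of the 42349 entries 873 join several genes. Read counts were not used here, which leaves library depth unknown, and the precision is that of the deposited FPKM intervals. Strand was not used to tell overlapping genes apart.

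Python 3.11.15, numpy 2.4.6, pandas 2.3.3, scipy 1.17.1 and matplotlib 3.10.9 were used. Subtracting the FPKM from its upper bound and dividing by 2 gave the SD. Differences on the log2 scale were tested with a two-sided Wald test against the normal distribution, the SE following from the delta method, and adjusted with the Benjamini-Hochberg procedure over the entries tested in a tissue and comparison, at an FDR of 10%. An entry was tested if its status was OK, neither group was listed at 0 and 1 of them reached an FPKM of 1. On simulated data the test kept to its FDR when values spread symmetrically around the group mean. When the spread was skewed in proportion to the value, it went far past its FDR, with more false calls than true ones. The adjusted p values are therefore approximate, and entries whose SD is large against their FPKM are the less certain. The skewed spread was simulated first.

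Groups were taken from the labels. The members and the 18 gene lists were chosen with earlier results of these data known. Named were the members, of each list the counts and up to 4 called genes with the largest difference per comparison in WAT and up to 2 in the other tissues, Irs1, the cell markers and the 3 entries most like each member. The difference of a contrast between WAT and another tissue was added after the values were seen. The 8 alternatives were intervals without overlap, an FDR of 5%, the SD divided by the square root of the number of libraries, pseudocounts of 0.1 and 1, no minimum FPKM, an FPKM of at least 5, and centring on the median. Gk and Adgre1 were found under older symbols.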

Additional observations from a re-analysis of the deposited data

Results flagged for a closer look

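A change between groups differed between WAT and another tissue for 3 members, each by a Wald test of the difference itself that was adjusted over all tested entries. For Ucp1 the log2 difference of KO_AL from WT_AL was lower in WAT than in skeletal muscle by a difference of -7.89 (SE 1.99, adjusted p 0.0414). For Elovl3 the log2 difference of KO_DR from KO_AL was higher in WAT than in liver by 4.75 (SE 1.07, adjusted p 0.00911), and that of KO_DR from WT_AL by 7.69 (SE 1.43, adjusted p 0.000246). For Dio2 the log2 difference of KO_AL from WT_AL was higher in WAT than in brain by 4.56 (SE 1.14, adjusted p 0.0616). The Elovl3 results share the KO_DR groups and are not independent of each other. A sample far from the rest of its group could not be looked for, since the table holds 1 pooled value per group.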

How the results depend on the processing

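The 10 member differences that passed kept their direction and passed under each of the 7 or 8 alternatives that gave them a value, including intervals that do not overlap. Dividing the SD by the square root of the number of libraries raised the number of members called from 3 to 5 for KO_AL against WT_AL, from 0 to 4 for WT_DR against WT_AL, from 2 to 5 for KO_DR against WT_DR, from 1 to 4 for KO_DR against WT_AL, from 0 to 3 for the interaction and from 4 to 13 for the difference of a contrast between WAT and another tissue. Among the added calls were Ucp1, Cidea and Elovl3 in WAT of WT_DR against WT_AL. A pseudocount of 0.1 gave 1 call for WT_DR against WT_AL (Elovl3 in WAT, adjusted p 0.0871) and 1 for the interaction, and a pseudocount of 1 gave 2 for KO_DR against WT_AL and 2 for the interaction. An FPKM of at least 5 left 1 for KO_DR against WT_DR, because Elovl3 in muscle was no longer tested, and intervals that do not overlap gave 2 for KO_DR against WT_AL. That rule gives no value for the interaction or for the difference of a contrast between tissues. Directions turned only for differences that had not passed. Centring on the median turned Ucp3 in WAT of WT_DR against WT_AL to 0.10, the interaction of Ppargc1a in muscle to -0.058 and of Ucp2 in brain to -0.077, and Ucp3 in KO_DR against WT_AL, WAT less brain, to 0.093. A pseudocount of 1 turned the interaction of Elovl3 in WAT to 0.92, Ppargc1a and Elovl3 in KO_DR against WT_DR, WAT less muscle, to 0.043 and 0.22, Prdm16 in WT_DR against WT_AL, WAT less liver, to -0.41 (-0.39 with a pseudocount of 0.1), and Ucp3 in KO_DR against KO_AL, WAT less liver, to -0.15. The cause was not tested. No paired analysis was possible because the table holds 1 pooled value per group, and for the same reason no library could be left out in turn. Large relative SDs limit Ppargc1a and Prdm16 in WAT.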

Other observations

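The elongase Elovl6 also rose in skeletal muscle, where its FPKM was 1.76 in WT_AL, 11.5 in WT_DR, 5.44 in KO_AL and 18.3 in KO_DR, and its log2 difference from WT_AL was 2.71 in WT_DR (SE 0.41, adjusted p 3.89e-08), 1.62 in KO_AL (SE 0.47, adjusted p 0.0754) and 3.37 in KO_DR (SE 0.44, adjusted p 9.59e-12). Thrsp in skeletal muscle was 15.4, 59.7, 66.2 and 124 in the same order and passed against WT_AL in all 3 groups. Lep, which encodes the fat hormone leptin, was 78.7 in WT_AL muscle, 4.03 in WT_DR, 9.24 in KO_AL and 12.4 in KO_DR, and it fell against WT_AL in each of the 3 (by 4.29, 3.09 and 2.67 on the log2 scale). Elovl2, an elongase of liver, fell in muscle of KO_DR against WT_DR by 6.03 (SE 1.38, adjusted p 0.00162). The muscle group of WT_DR was also the one with the highest hepatocyte markers, of which 5 of 6 rose against WT_AL, and their part in the Elovl2 value was not tested.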
